A study of Mus musculus with 72 samples.

Results

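The 49 genes described here encode the enzymes that remove superoxide and peroxides from mouse cells, together with the glutathione and thioredoxin systems that serve them. The exceptions are the quinone reductase gene Nqo1, the heme oxygenase gene Hmox1 and Gstp-ps, which its symbol marks as a pseudogene of the Gstp family. The rule that chose the 49 genes went by gene symbol and was set with earlier results of these data known. It took the superoxide dismutases, catalase, the glutathione peroxidases, the peroxiredoxins and sulfiredoxin, the thioredoxins and their reductases, the glutaredoxins, the glutathione synthesis and recycling enzymes, the glutathione transferases, Nqo1 and Hmox1. This rule was met by 46 of the 13543 genes measured in muscle and by 49 of the 15431 measured in brain. Gpx6, Gstm6 and Gsto2 were present in the brain table only, which left 46 genes in both. Each of the 46 and 49 genes passed the filter on low values, so that all of them were among the 13505 muscle and 15400 brain genes tested.

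RNA-seq was performed on hindlimb muscle, the tibialis anterior pooled with the extensor digitorum longus, and on prefrontal cortex. The mice were wild-type (WT) or heterozygous for the Kl tm1Lex allele of klotho (strain B6;129S5-Kl tm1Lex/Mmucd, KlHET). NMES mice had the muscles of both hind legs stimulated electrically through the skin at 9 mA under isoflurane, in 5 sessions of 2 sets per leg with 10 stimulations in a set, and control mice had 15 min of isoflurane alone, so that the anesthetic was common to all groups. Collection followed 24 h after the fifth session. The same 36 mice gave both tissues, 1 library each: 6 controls and 6 NMES mice were WT, and 12 controls and 12 NMES mice were KlHET. The mice were 2 months old when NMES was given. The labels number all WT animals in one series and all KlHET animals in another, so that genotype and whatever these series stand for cannot be told apart.

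Depth ran from 14.8 to 24.5 M reads per library in muscle and from 16.97 to 28.0 M in brain. Levels are given as normalised CPM, the deposited CPM (reads of a gene scaled to a common library total) after scaling each library by its trimmed mean of M values (TMM), and differences as log2 differences ± SE of log2(normalised CPM + 0.5). Kl itself was in the brain table, where it ran from 1.33 to 6.79 normalised CPM in WT Control and from 1.90 to 29.1 in KlHET Control. The groups overlapped and the log2 difference was 0.38 ± 0.51 (limma, adjusted p = 0.807), so that Kl mRNA in these cortex libraries gave no check of the genotype labels. Kl was not analysed here in muscle. Skeletal fibre markers were abundant in each muscle library (90193 to 170417 normalised CPM summed over 11 genes) and neuron markers in each brain library (5059 to 9475 over 8 genes). Mitochondrial transcripts made up 6.39 to 33.6% of the muscle reads, lowest in KlHET NMES 9, and 1.67 to 5.65% of the brain reads, lowest in WT Control 1.

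Superoxide dismutases turn superoxide into hydrogen peroxide, which catalase, the glutathione peroxidases and the peroxiredoxins then reduce. Glutathione peroxidases draw their electrons from glutathione, which glutathione reductase regenerates, and most peroxiredoxins draw theirs from thioredoxin, which thioredoxin reductase regenerates, so that both branches end at NADPH. In mitochondria part of that NADPH is made by the nicotinamide nucleotide transhydrogenase Nnt, and the C57BL/6J substrain is known to carry a deletion within this gene. Glutathione transferases couple glutathione to lipid peroxidation products and foreign compounds. Many of these genes are known targets of NRF2, which binds the antioxidant response element of their promoters, and skeletal muscle produces superoxide and peroxide when it contracts.

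Promoter windows from RefSeq (GRCm38.p6, 250 bases before to 50 after each transcript start) were matched to 41 of the 49 genes. The core of the antioxidant response element, TGACNNNGC on either strand, was present in 8 of their 58 windows (13.8%), against 12.4% of 32851 windows of all genes. The looser form TGANNNNGC, which contains the core, was present in 23 of the 58 (39.7%) against 41.3% of all windows. The 8 genes were Gclm, Gsta3, Gstm5, Gstm7, Prdx1, Sod1, Srxn1 and Txnrd1. The 250 bases upstream of Prdx1 (chr4:116685349-116685598, plus strand), Sod1 (chr16:90220512-90220761, plus strand) and Gstm5 (chr3:107895604-107895853, plus strand) are printed because these are the core-bearing genes that differed between the genotypes in muscle. The core is in capitals, read on the opposite strand in Prdx1 and Sod1, and begins 133, 56 and 42 bases before the RefSeq start. The gene spans given below are from GENCODE and begin inside these windows, at 116685544, 90220754 and 107895821.
Prdx1: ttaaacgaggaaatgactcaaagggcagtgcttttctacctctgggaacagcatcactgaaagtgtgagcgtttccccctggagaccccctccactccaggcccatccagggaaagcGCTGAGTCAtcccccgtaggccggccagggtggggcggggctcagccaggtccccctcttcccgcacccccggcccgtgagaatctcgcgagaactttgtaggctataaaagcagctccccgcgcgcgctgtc
Sod1: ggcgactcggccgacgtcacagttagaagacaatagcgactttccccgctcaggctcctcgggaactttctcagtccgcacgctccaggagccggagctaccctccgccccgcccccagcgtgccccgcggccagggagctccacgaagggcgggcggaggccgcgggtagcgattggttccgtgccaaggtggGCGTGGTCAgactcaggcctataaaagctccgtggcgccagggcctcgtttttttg
Gstm5: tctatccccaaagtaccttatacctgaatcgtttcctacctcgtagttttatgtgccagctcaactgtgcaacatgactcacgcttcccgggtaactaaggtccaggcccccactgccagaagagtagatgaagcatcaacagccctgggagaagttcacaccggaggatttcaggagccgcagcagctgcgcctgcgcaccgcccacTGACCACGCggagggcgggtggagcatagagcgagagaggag

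To compare levels between genes, the median normalised CPM over 36 libraries was divided by the annotated exon length in kilobases. This length counts each base that is exon in any annotated transcript, such as 3970 bases for Sod1 and 3043 for Prdx1. It can exceed the length of the mRNA present, so that the order of genes depends on the annotation. In muscle the highest levels per kilobase belonged to the mitochondrial peroxiredoxin Prdx3 (189), the processed Gstp copy Gstp-ps (144), Prdx5 (69.5), the secreted glutathione peroxidase Gpx3 (66.8) and the mu-class transferases Gstm5 (55.1) and Gstm1 (53.7). In brain they belonged to Gstp-ps (86.4), Gstm5 (85.0), Prdx5 (82.4), Gstm1 (75.9), the cytosolic peroxiredoxin Prdx2 (62.3) and the cytosolic glutathione peroxidase Gpx1 (43.4). Gsta3 was lowest in both tissues at 0.12 per kilobase. The pi-class genes Gstp1, Gstp2 and Gstp-ps, like the mu-class Gstm genes, are related copies, and how reads that fit more than 1 copy were divided is uncertain. The members varied between mice of a group about as much as other genes did: the median within-group SD was 0.22 in muscle and 0.19 in brain on the log2 scale, against 0.25 and 0.19 over all genes. Gsta3 (0.66) and Gstm2 (0.48) varied most in muscle and Prdx3 (0.11) least, while Gpx3 (0.84) and Gpx6 (0.76) varied most in brain and the mitochondrial dismutase Sod2 (0.05) least.

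In the muscle of control mice, several genes of superoxide and peroxide removal were lower in KlHET than in WT mice. Sod1, Prdx2, Prdx3, Prdx5, Txn1, Txn2 and Gpx4 fell, by 0.20 to 0.42 on the log2 scale, and no member rose. These 7 of 46 genes compare with 6% of all 13505 genes called, 3.41% lower and 2.59% higher. In total 39 of the 46 members lay below 0 with a median of -0.16, against a median of 0.02 over all genes. With libraries scaled by total counts the median over all genes moved to 0.08 and that of the members to -0.09, and 2 members, Sod1 and Prdx5, were still called, beside 751 genes higher and 102 lower in all. Without WT Control 3 the calls fell to 2, Sod1 and Prdx2, and those over all genes from 350 higher and 460 lower to 28 and 93. Without WT Control 4 they fell to 4, and over all genes to 200 and 270.

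Sod1, the copper-zinc dismutase of the cytosol (chr16:90220754-90226329, exon and intron span in GRCm38), ran from 91.1 to 124 with a median of 105 normalised CPM in WT Control, and from 74.6 to 87.4 with a median of 80.2 in KlHET Control. Each of the 12 KlHET mice lay below each of the 6 WT mice. How many of all genes separate the groups in this way was not counted, here or for the genes below. The difference was -0.40 ± 0.09 (limma, adjusted p = 0.0071), and it passed whichever of the 36 libraries was left out. The mitochondrial Sod2 (-0.21 ± 0.07) and the extracellular Sod3 (0.32 ± 0.19) did not pass.

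Of the peroxiredoxins, Prdx5 (chr19:6906697-6910106), found in mitochondria, peroxisomes and cytosol, ran from 161 to 203 with a median of 171 normalised CPM in WT Control and from 120.5 to 149 with a median of 129 in KlHET Control. These groups did not overlap either, and the difference was -0.42 ± 0.09 (adjusted p = 0.00955). Prdx2 (chr8:84969587-84974834), the cytosolic form abundant in red cells, ran from 123 to 151 (median 133) in WT Control and from 92.6 to 128 (median 104) in KlHET Control, with 10 of 12 KlHET mice below each WT mouse (-0.33 ± 0.07, adjusted p = 0.00777). Prdx3 (chr19:60864051-60874556), the mitochondrial form, ran from 300.4 to 324 (median 305) and from 227 to 304 (median 267), with 11 of 12 KlHET mice below each WT mouse (-0.20 ± 0.06, adjusted p = 0.0433). When each of the 36 libraries was left out in turn, the call on Prdx3 was kept 23 times, that on Prdx2 36 times and that on Prdx5 35 times. Prdx1, at -0.19 ± 0.06, narrowly missed the threshold (adjusted p = 0.0575).

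The electron donors of the peroxiredoxins were lower as well. Txn1 (chr4:57943373-57956411), cytosolic thioredoxin, ran from 40.7 to 60.1 with a median of 47.0 normalised CPM in WT Control and from 33.04 to 45.2 with a median of 38.6 in KlHET Control, a difference of -0.33 ± 0.08 (adjusted p = 0.0192). Txn2 (chr15:77915047-77929006), the mitochondrial thioredoxin, ran from 188 to 220.1 (median 197) and from 142 to 217 (median 163), a difference of -0.29 ± 0.08 (adjusted p = 0.0261). The groups overlapped for both genes, with 7 and 10 of 12 KlHET mice below each WT mouse. The reductases Txnrd1 (-0.01 ± 0.11), Txnrd2 (-0.20 ± 0.07) and Txnrd3 (-0.13 ± 0.14) did not pass. Gpx4 (chr10:80047166-80056439), the selenoenzyme that reduces lipid peroxides in membranes, ran from 49.8 to 58.6 (median 55.7) in WT Control and from 34.9 to 54.0 (median 44.1) in KlHET Control, with 9 of 12 KlHET mice below each WT mouse (-0.30 ± 0.09, adjusted p = 0.0333).

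**Figure D1:**
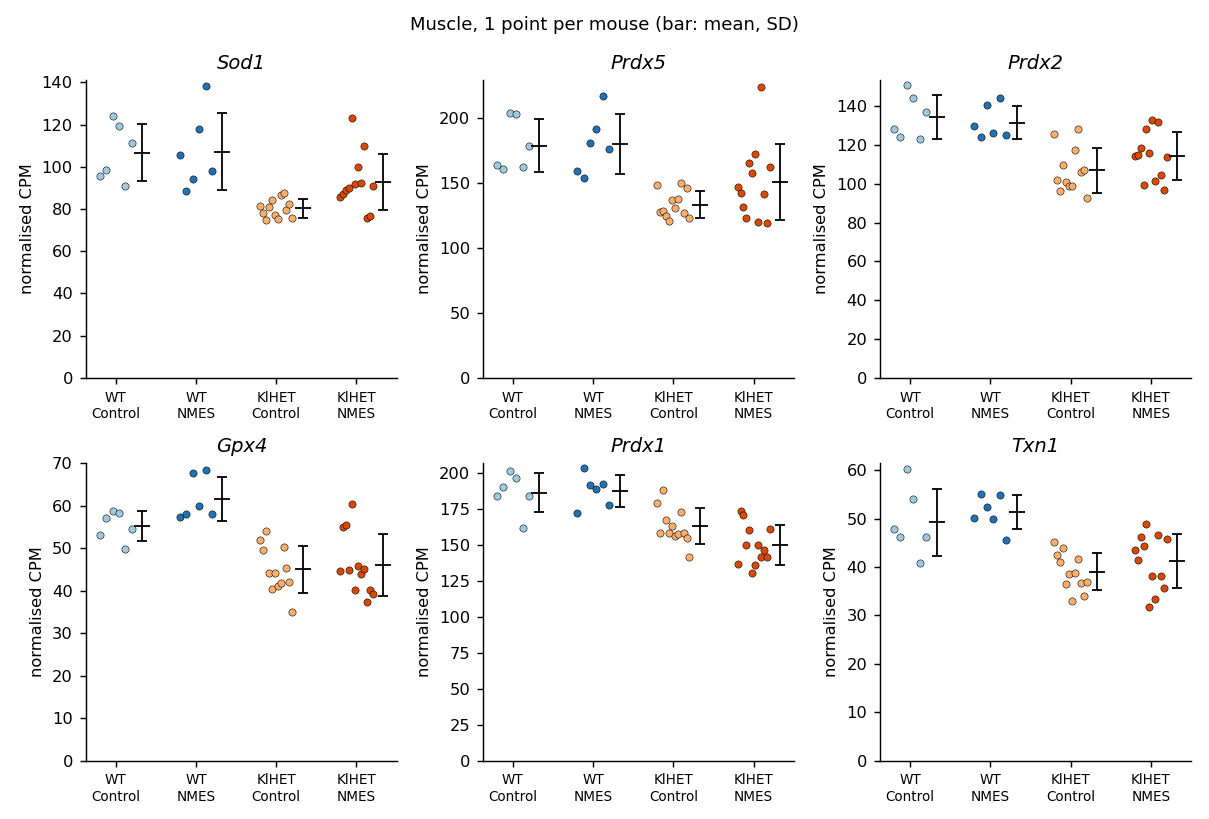
Normalised CPM (vertical axis, from 0) of Sod1, Prdx5, Prdx2, Gpx4, Prdx1 and Txn1 in muscle by group, 1 point per mouse, with the mean and SD of each group. The 12 KlHET Control points of Sod1 lie between 74.6 and 87.4, below the 6 WT Control points at 91.1 to 124, and those of Prdx5 at 120.5 to 149 lie below 161 to 203.

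After NMES more members were called. In KlHET NMES against WT NMES mice, 11 of 46 members fell and none rose. Of all genes 19.1% were called here, 9.87% lower and 9.26% higher. Gpx4, Prdx2, Prdx3, Prdx5, Txn1 and Txn2 were called in both comparisons, and Prdx1, Gstp-ps, Gstm5, Glrx and Nqo1 after NMES alone. The comparisons use different mice, but the same animal series and a shared estimate of the spread. How many of all genes were called in both was not counted. No member differed in a test of the interaction (0 of 13505 genes at adjusted p 0.05 with limma, 475 genes and 2 members at unadjusted p 0.05), so that neither list was shown to be particular to its condition. The members had a median of -0.13 with 10 of 46 above 0, against 0.02 over all genes. With total-count scaling these medians became 0.01 and 0.14, and the calls became 2 lower (Glrx and Gpx4) and 3 higher (Cat, Gstz1 and Sod3), beside 307 lower and 2636 higher of all 13505 genes.

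Prdx1 (chr4:116685544-116700822), a cytosolic peroxiredoxin, ran from 172 to 203 with a median of 189.9 normalised CPM in WT NMES and from 131 to 173 with a median of 148 in KlHET NMES. Of the 12 KlHET mice 11 lay below each WT mouse, and the difference was -0.33 ± 0.06 (adjusted p = 0.000874). Gpx4 ran from 57.4 to 68.4 (median 58.9) and from 37.4 to 60.4 (median 44.8), again with 11 of 12 KlHET mice below each WT mouse (-0.43 ± 0.09, adjusted p = 0.00124). Prdx3 (-0.25 ± 0.06, adjusted p = 0.00442), Prdx5 (-0.27 ± 0.09, adjusted p = 0.0411) and Prdx2 (-0.21 ± 0.07, adjusted p = 0.043) were lower as well, and Prdx2 and Prdx5 lost the call on leaving out any of 10 of the 36 libraries. Txn1 (-0.33 ± 0.08, adjusted p = 0.00719) and Txn2 (-0.28 ± 0.08, adjusted p = 0.0128) were also lower. Sod1 at -0.20 ± 0.09 did not pass here (adjusted p = 0.0901), and its KlHET NMES values of 75.7 to 123 overlapped the WT NMES values of 88.5 to 138.

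Of the glutathione-linked genes, Glrx (chr13:75839868-75850154), the cytosolic glutaredoxin that removes glutathione from protein thiols, ran from 44.5 to 54.0 with a median of 50.1 normalised CPM in WT NMES and from 25.8 to 51.4 with a median of 37.5 in KlHET NMES (-0.37 ± 0.10, adjusted p = 0.00804). Gstm5 (chr3:107895821-107898686) ran from 69.2 to 93.8 (median 90.9) and from 52.4 to 83.6 (median 69.7), a difference of -0.31 ± 0.08 (adjusted p = 0.00495). Gstp-ps (chr1:192073820-192074450) ran from 95.01 to 121 (median 98.8) and from 65.5 to 99.1 (median 82.8), a difference of -0.30 ± 0.07 (adjusted p = 0.0047). The related genes Gstp1 (-0.25 ± 0.10, adjusted p = 0.0684) and Gstp2 (-0.23 ± 0.11) lay the same way without passing. Nqo1 (chr8:107388225-107403206), the quinone reductase used as a marker of NRF2 activity, ran from 15.6 to 21.6 (median 16.8) and from 7.96 to 17.4 (median 13.1), a difference of -0.49 ± 0.14 (adjusted p = 0.0153). In Gstm5, Gstp-ps and Nqo1 each of the 12 KlHET mice lay below the WT NMES mean, although the ranges overlapped.

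The families differed in how evenly they lay below 0. After NMES 7 of 7 peroxiredoxin and sulfiredoxin genes were below 0 (4 with total-count scaling), and so were 5 of 5 glutathione peroxidases (3), 3 of 3 glutaredoxins (1), 4 of 5 thioredoxin genes (3) and 12 of 16 glutathione transferases (10). In controls the same counts were 5 of 7 (5), 5 of 5 (3), 3 of 3 (3), 5 of 5 (4) and 14 of 16 (11). The genes of glutathione synthesis and recycling lay near 0 in both conditions, from -0.04 to 0.03 in controls and from -0.12 to 0.09 after NMES, and all 4 were above 0 with total-count scaling: the ligase subunits Gclc and Gclm, glutathione synthetase Gss and the reductase Gsr all failed the test. Catalase (0.15 ± 0.13 and 0.24 ± 0.14) and Sod3 (0.32 ± 0.19 and 0.50 ± 0.19) lay above 0 without passing in the main limma fit. After NMES Sod3 was called higher with edgeR quasi-likelihood, DESeq2, total-count scaling or sex as a covariate. Without KlHET NMES 9, the library of the lowest mitochondrial share, Sod3 was called as well. It was not called with RLE scaling, other pseudocounts, no filter, Nnt as a covariate or a length and GC correction.

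**Figure D2:**
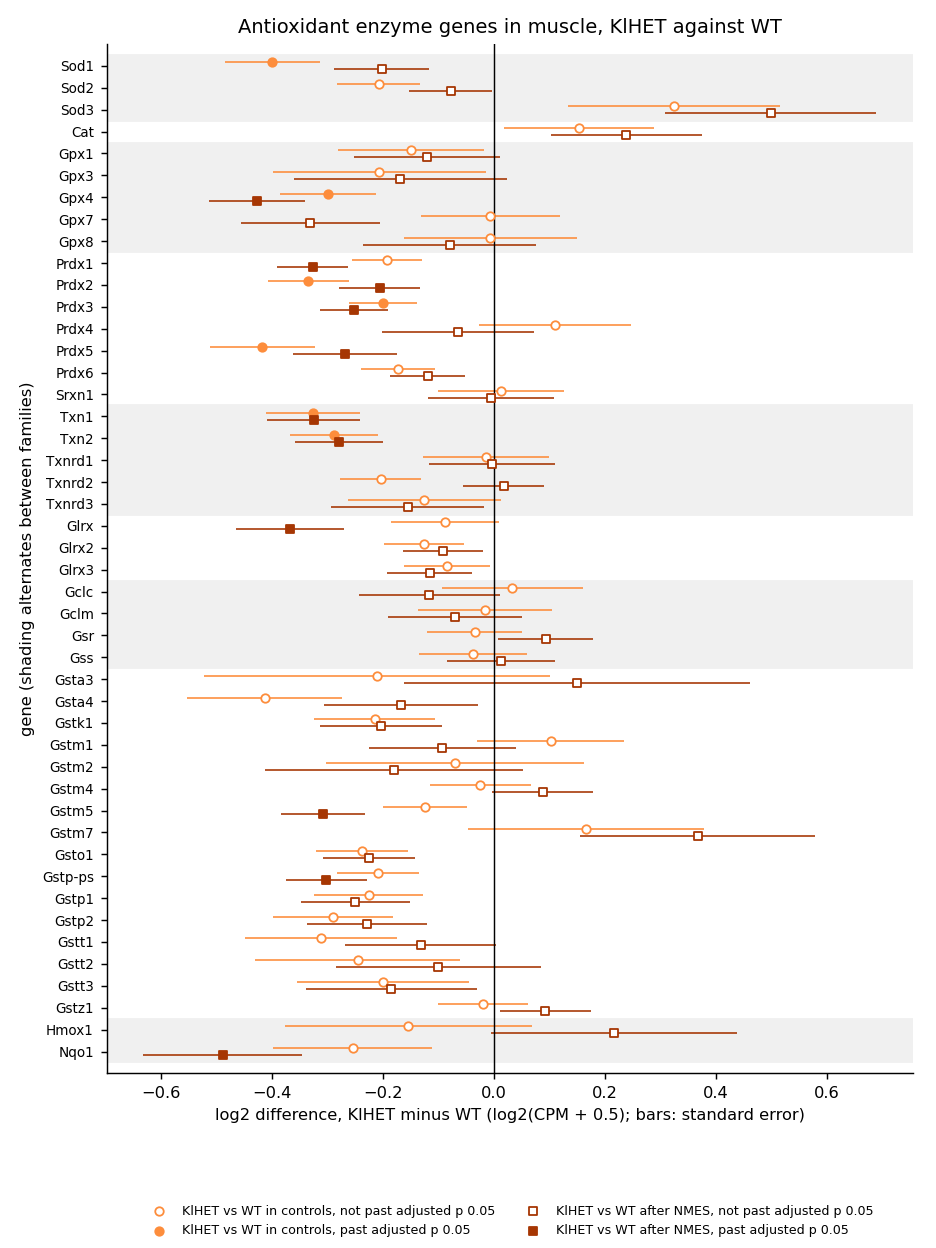
Log2 difference KlHET minus WT in muscle (horizontal axis, log2(CPM + 0.5)) for the 46 members, ordered by family, in controls (circles) and after NMES (squares) with SE bars; filled symbols passed adjusted p 0.05. The 7 and 11 filled symbols all lie left of 0, while Sod3 at 0.32 and 0.50 and Cat at 0.15 and 0.24 lie to the right with open symbols.

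Transcript length moved with the genotype difference over all genes. When genes were split by exon length into 3 nearly equal groups, with bounds at 3267 and 5860 bases, the median log2 difference was -0.08, 0.02 and 0.10 from the shortest to the longest in controls and -0.10, 0.03 and 0.13 after NMES, and 6.81% and 17.8% of the short genes were called lower. Of the members 29 were among the shortest genes, which held 5 of the 7 calls in controls and 9 of the 11 after NMES. Among the shortest genes the members had a median of -0.19 in controls and -0.18 after NMES. With a spline correction for length and GC content, added after the data had been seen, Prdx2, Prdx5 and Sod1 were still called lower in controls. After NMES Glrx, Gpx4, Prdx1 and Txn2 were still called lower, and Sod1, not called without the correction, was called lower as well. Whether RNA quality had a part in this was not tested.

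Markers of other cell types were measured in the same libraries. In controls 1 of 8 fibroblast markers, Fbn1, was higher in KlHET mice, and 0 of 8 slow fibre markers passed, with a median of 0.74 and summed levels of 984 to 2144 normalised CPM in WT and 909 to 4407 in KlHET mice. After NMES 1 of 8 genes of the slow fibre list (median 0.21) was higher in KlHET mice, Myh2, which encodes a fast-fibre myosin. Higher too were 2 of 10 adipocyte, 2 of 8 fibroblast and 1 of 8 macrophage markers, with medians of 0.67, 0.49 and 0.56. Their summed levels overlapped, for adipocytes at 873 to 1691 in WT NMES and 1009 to 1918 in KlHET NMES, for fibroblasts at 550 to 939 and 458 to 2021, and for macrophages at 25.5 to 38.9 and 20.9 to 132. Of the 11 skeletal fibre markers 3 were lower in controls, and 4 were lower and 1 higher after NMES. Of 8 endothelium markers 0 passed in either condition, with medians of 0.15 and 0.25. These counts stand beside 3.41% of all genes lower and 2.59% higher in controls, and 9.87% lower and 9.26% higher after NMES. No marker was at 0 throughout a group. In such bulk samples fewer cells of a type and less RNA per cell cannot be told apart, and the part of these markers in the result was not tested. Genes on the opposite strand overlap the exons of Prdx2, Prdx5, Gss and 4 other members, and the strand setting of the counting was not given in the sources used here. Trmt112, opposite Prdx5, was at -0.17 ± 0.08 (adjusted p = 0.154) and Rnaseh2a, opposite Prdx2, at -0.19 ± 0.09 (adjusted p = 0.209) in controls.

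In the neighbouring pathways genes were called in both directions, to be read against 3.41% of all genes lower and 2.59% higher in controls, and 9.87% lower and 9.26% higher after NMES. Among 18 genes of NADPH supply Nnt alone was called in controls, and Nnt and the mitochondrial malic enzyme Me2 (0.47 ± 0.16, adjusted p = 0.0331) were higher after NMES. None of 11 NRF2 regulators passed in controls, and after NMES Nfe2l1, which encodes the related factor NRF1, was higher (0.23 ± 0.07) and the ubiquitin ligase component Rbx1 lower (-0.34 ± 0.07, adjusted p = 0.0273 and 0.002). Among 20 other NRF2 target and conjugation genes the iron store subunit Fth1 (-0.35 ± 0.08 in controls and -0.41 ± 0.08 after NMES, adjusted p = 0.0103 and 0.001) and the membrane-bound transferase Mgst3 (-0.40 ± 0.12 and -0.56 ± 0.12, adjusted p = 0.0383 and 0.00183) fell in both conditions, and the glutathione conjugate exporter Abcc1 rose (0.32 ± 0.08 and 0.26 ± 0.08, adjusted p = 0.0174 and 0.0234). Of 18 genes of glutathione turnover 1 was higher in controls, Slc3a2 (0.25 ± 0.07), a subunit of the cystine transporter, and after NMES the aminopeptidase Anpep rose (0.94 ± 0.16) while Chac2, which degrades glutathione, fell (-0.55 ± 0.09) along with Esd. Of 17 thioredoxin-linked genes 0 passed in controls and 2 in each direction after NMES. Of 20 genes of selenoprotein synthesis and other selenoproteins Pstk, the kinase that primes selenocysteine transfer RNA, was the 1 called in controls (-0.41 ± 0.10, adjusted p = 0.0118). After NMES 4 of these 20 were lower, with Selenow, abundant in muscle, at -0.58 ± 0.12 (adjusted p = 0.0011) the most significant, and 2 were higher.

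Over both genotypes 3 of 46 members rose with NMES in muscle and none fell, against 1.78% of all genes called, 1.27% higher and 0.511% lower. Gss, which completes glutathione synthesis, rose by 0.27 ± 0.07 (limma, adjusted p = 0.0369, with 17 of 18 NMES mice above the mean of the controls of like genotype), Txn2 by 0.21 ± 0.06 (adjusted p = 0.0388, 17 of 18) and Glrx by 0.25 ± 0.07 (adjusted p = 0.0487, 15 of 18). With total-count scaling none of them passed (adjusted p = 0.115, 0.17 and 0.0835), and over the 11 other settings, total-count scaling included, their adjusted p ran from 0.008 to 0.115 for Gss, from 0.016 to 0.17 for Txn2 and from 0.0109 to 0.0835 for Glrx. On leaving out 1 library at a time the call was kept 31, 23 and 8 times of 36, and all 3 genes missed the threshold without WT Control 1 or 6 or WT NMES 3 or 5. Acss2, which overlaps Gss on the opposite strand, was at -0.01 ± 0.06.

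Markers of other cell types were measured over the same mice. With NMES the median log2 difference was -0.58 over 8 fibroblast markers, none of them above 0, -0.24 over 8 endothelium markers, also with none above 0, -0.18 over 8 macrophage, 0.57 over 8 slow fibre and 0.40 over 10 adipocyte markers, and no gene of these lists passed. The fibroblast sum ran from 811 to 1597 normalised CPM in WT Control and from 550 to 939 in WT NMES, and from 777 to 1606 in KlHET Control and 458 to 2021 in KlHET NMES. The endothelium sum ran from 449 to 742 and 326 to 623 in WT, and from 426 to 987 and 377 to 780 in KlHET mice. The slow fibre sum lay the other way from its list's median, at 984 to 2144 (median 1537) in WT Control and 620 to 1482 (median 1016) in WT NMES, and 909 to 4407 (median 1865) and 635 to 3717 (median 1649) in KlHET mice. Of the 11 skeletal fibre markers Mylpf was higher, beside 1.27% of all genes. The part of these markers in the NMES result was not tested.

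Each of the 3 genes lay higher after NMES in WT and in KlHET mice. Gss ran from 9.07 to 12.6 (median 11.2) normalised CPM in WT Control, from 9.74 to 18.1 (median 12.4) in WT NMES, from 8.61 to 12.9 (median 10.4) in KlHET Control and from 11.004 to 16.9 (median 13.0) in KlHET NMES. Txn2 ran from 188 to 220.1 in WT Control and from 222 to 247 in WT NMES, with no overlap, and from 142 to 217 in KlHET Control and 149 to 235 in KlHET NMES. Glrx ran from 33.8 to 43.4 in WT Control and from 44.5 to 54.0 in WT NMES, also with no overlap, and from 31.2 to 41.5 and 25.8 to 51.4 in KlHET mice. In WT alone limma called no member and 2 of 13505 genes (0.0148%), with 4 members and 1200 genes at unadjusted p 0.05. Glrx was at 0.39 ± 0.11 (adjusted p = 0.28) and Txn2 at 0.21 ± 0.09 (adjusted p = 0.511). In both genes the 6 WT NMES mice lay above the 6 controls, but how many of all genes do so was not counted. Gstm5 was at 0.26 ± 0.09 (adjusted p = 0.375). In KlHET mice limma called no member and 0.644% of genes, with 10 members and 1883 genes at unadjusted p 0.05, and DESeq2 on recovered reads called 3, Gss, Sod2 and Txn2. Gss was nearest at 0.30 ± 0.08 (adjusted p = 0.0676), before Txn2 (0.22 ± 0.06, adjusted p = 0.102) and Sod2 (0.19 ± 0.06, adjusted p = 0.135). The interaction was smallest in p for Txnrd2 (0.22 ± 0.10), Glrx (-0.28 ± 0.14) and Gpx7, an endoplasmic reticulum peroxidase (-0.32 ± 0.18), with adjusted p = 0.99993 in each. Of the 6 neighbouring pathway lists 1 gene passed over both genotypes, Abcc1 (0.29 ± 0.06, adjusted p = 0.00559).

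**Figure D3:**
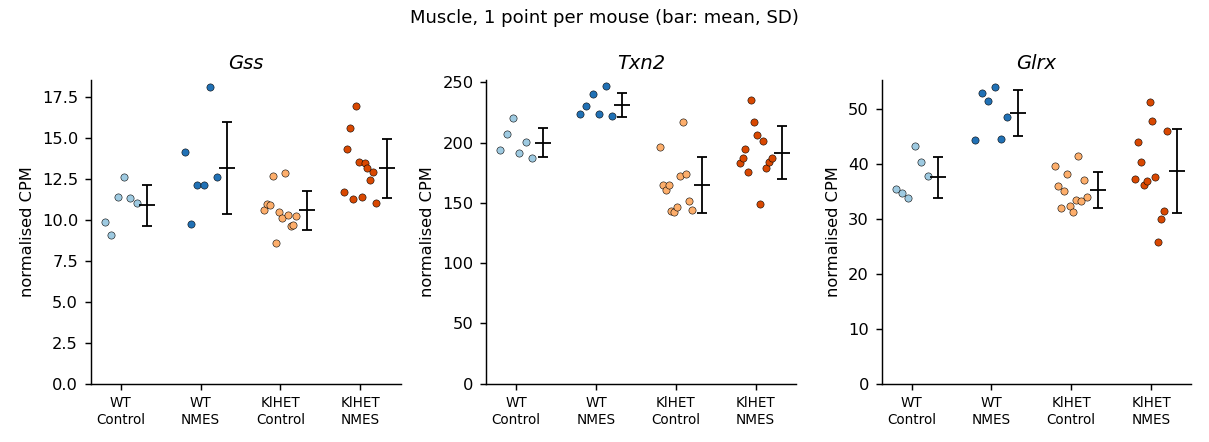
Normalised CPM (vertical axis, from 0) of Gss, Txn2 and Glrx in muscle by group, 1 point per mouse, with mean and SD. The 6 WT NMES points of Txn2 at 222 to 247 and of Glrx at 44.5 to 54.0 lie above the WT Control points, whereas the KlHET groups overlap in all 3 genes.

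Nnt (chr13:119335448-119408997) itself was higher in KlHET muscle. It ran from 15.6 to 28.4 (median 21.99) normalised CPM in WT Control and from 31.5 to 99.03 (median 52.5) in KlHET Control, with no overlap (1.21 ± 0.30, adjusted p = 0.0151). After NMES it ran from 15.4 to 26.4 (median 21.8) in WT and from 14.1 to 116 (median 61.8) in KlHET mice (1.32 ± 0.30, adjusted p = 0.00287), with KlHET NMES 8 at 14.1 the 1 of 12 that did not exceed the WT mice. The KlHET mice thus spanned a wide range of Nnt, against which the members were set with group means removed. The Nnt sequence that each mouse carried was not analysed here.

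No member passed on this slope in muscle, where 44 of 13505 genes did (0.326%, Nnt itself among them) and 10 members and 1532 genes had an unadjusted p under 0.05 (6 and 622 with sex as a covariate). Gstm2, a mu-class transferase, was nearest with 0.47 ± 0.11 log2 units per log2 unit of Nnt (adjusted p = 0.0507), followed by the mitochondrial and peroxisomal kappa-class Gstk1 (0.20 ± 0.06, adjusted p = 0.0867) and Gclm (-0.21 ± 0.06, adjusted p = 0.111). Without KlHET NMES 8 these slopes were 0.41, 0.13 and -0.16 (adjusted p = 0.352, 0.726 and 0.703), whereas Gstm2 passed with total-count scaling (adjusted p = 0.0265). Idh2, the mitochondrial NADP-linked isocitrate dehydrogenase, was the 1 of the 17 other genes of NADPH supply to pass (0.62 ± 0.11, adjusted p = 0.00536). The 8 slow fibre markers all had slopes above 0 with a median of 0.78 and none called. Their part in these slopes was not tested.

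Nnt and these genes were also set against the sex of the mouse, read from Xist and Y-linked transcripts. Xist was the higher in 3 controls and 3 NMES mice among the WT, and in 7 controls and 8 NMES mice among the KlHET mice. In the KlHET Control mice with Xist the higher, Gstm2 ran from 25.8 to 37.7 (median 33.1) normalised CPM, and in the other 5 from 12.7 to 24.3 (median 19.5), with no overlap. Nnt ran from 31.5 to 99.03 (median 68.4) in the former and from 32.95 to 44.8 (median 35.6) in the latter. Gclm lay the other way, at 8.12 to 10.1 in the former and 11.1 to 14.2 in the latter. In KlHET NMES mice the ranges overlapped for each of these genes, at 14.6 to 37.1 and 10.5 to 22.2 for Gstm2, 28.3 to 116 and 14.1 to 80.4 for Nnt, and 7.81 to 11.8 and 7.88 to 14.6 for Gclm, as they did for Gstm2 in WT NMES (22.9 to 33.4 and 21.5 to 24.7). In WT Control Gstm2 ran from 23.5 to 39.9 and from 20.9 to 22.2, with no overlap. How many of all genes separate the sexes in this way was not counted, and the difference between the sexes was not tested. With sex as a covariate the slopes on Nnt were 0.22 for Gstm2 (adjusted p = 0.999), 0.09 for Gstk1 and -0.11 for Gclm, and Nnt was the only gene of the table past the threshold. Adding Nnt as a covariate to the genotype comparisons gave 12 members lower in controls and 14 after NMES, against 7 and 11 without it. Over all genes it gave 542 lower and 412 higher in controls (460 and 350 without it), and 909 lower and 832 higher after NMES (1333 and 1251).

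**Figure D4:**
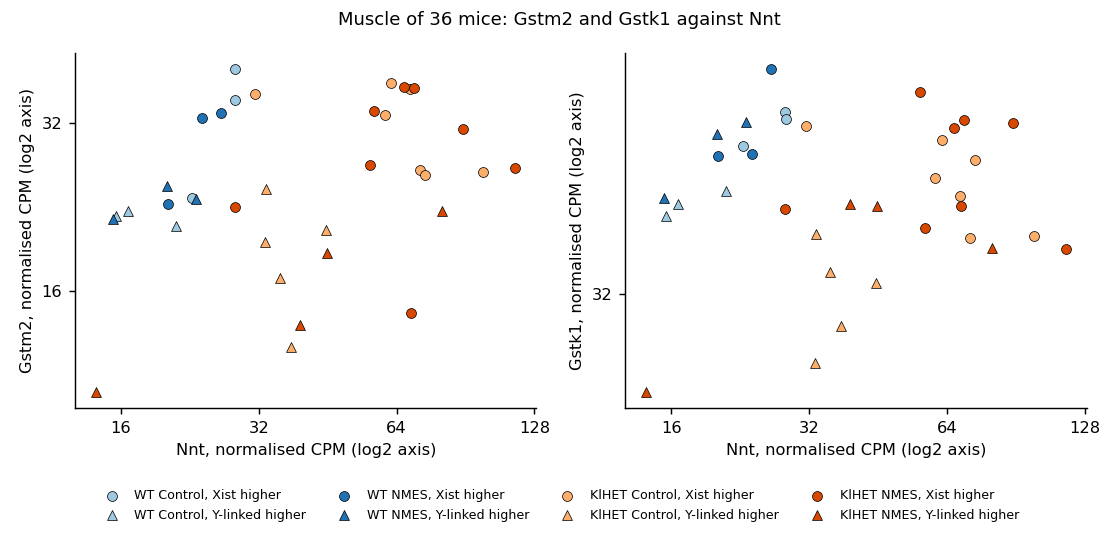
Gstm2 and Gstk1 against Nnt in the muscle of 36 mice, normalised CPM on log2 axes, colored by group, with circles for mice in which Xist was the higher and triangles for those in which Y-linked genes were. Circles lie mostly above triangles for Gstm2, and KlHET NMES 8 is the triangle at the lower left, at 14.1 for Nnt and 10.5 for Gstm2.

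In brain no member passed in any of the 6 comparisons. Over all 15400 genes limma called 0 in each comparison of NMES with control and in the interaction, 11 (0.0714%, with 0.0519% higher and 0.0195% lower) between genotypes in controls and 15 (0.0974%, with 0.0584% higher and 0.039% lower) after NMES. At unadjusted p 0.05 there were 1, 2 and 1 members for NMES over both genotypes, in WT and in KlHET, 2 for the interaction, and 9 and 2 for genotype in controls and after NMES. The genes past it were 307, 421 and 314, 454, and 1609 and 657 of 15400. Without WT Control 1, the library with the lowest mitochondrial share, 0 members were left for NMES in WT, 1 for the interaction and 4 for genotype in controls (247, 269 and 1077 genes). The members were centred on 0 between genotypes, with 26 of 49 above it and a median of 0.00 in controls, and 25 of 49 with a median of 0.01 after NMES.

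Sod3, the extracellular dismutase made by vascular and other cells, came nearest. It ran from 13.7 to 18.1 with a median of 16.7 normalised CPM in WT Control and from 7.51 to 15.7 with a median of 11.1 in KlHET Control, where 12 of 12 mice lay below the WT mean and 9 of 12 below each WT mouse. The difference of -0.57 ± 0.13 had an adjusted p of 0.0922 with limma and 0.0242 with DESeq2, and it also passed with limma on leaving out 2 of the 36 libraries, KlHET Control 1 or 7. Markers of other cells and regions, none of them called, were measured in the same libraries: in controls 8 of 8 striatum markers lay above 0 between the genotypes (median 0.41), 8 of 8 oligodendrocyte (0.17), 8 of 8 endothelium (0.13) and 7 of 8 choroid plexus markers (0.48). Their sums overlapped between WT and KlHET Control, at 298 to 3004 and 242 to 2447 normalised CPM for striatum, 2827 to 4775 and 2493 to 8669 for oligodendrocytes, 158 to 195 and 151 to 237 for endothelium, and 215 to 349.7 and 231 to 2685 for choroid plexus. Their part in the Sod3 difference was not tested. After NMES Sod3 was at -0.32 ± 0.13 (adjusted p = 0.9998). Txnrd2, the mitochondrial thioredoxin reductase (-0.24 ± 0.07, adjusted p = 0.235), and Prdx2 (-0.15 ± 0.05, adjusted p = 0.304) were next in controls, and after NMES glutathione reductase Gsr (0.21 ± 0.08) and the theta-class Gstt1 (-0.20 ± 0.12) stood beside Sod3, with adjusted p = 0.977 and 0.9998. For NMES over both genotypes the alpha-class Gsta4 (-0.20 ± 0.07), Sod3 (0.14 ± 0.09) and Prdx3 (0.05 ± 0.03) had the smallest p, each with adjusted p = 0.9999. In WT brain these were Txnrd2 (-0.20 ± 0.08), Gsta4 (-0.29 ± 0.12, and -0.16 without WT Control 1) and Txn1 (-0.12 ± 0.06), and in KlHET brain Sod3 (0.26 ± 0.11), Hmox1 (-0.14 ± 0.08) and Cat (-0.12 ± 0.07), and for the interaction Txnrd2 (0.27 ± 0.10), Txn1 (0.19 ± 0.08) and Prdx2 (0.13 ± 0.07), all with adjusted p above 0.99.

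Gpx3 was the most variable member in brain, and 1 library was far above the rest. KlHET Control 7 had 82.1 normalised CPM, followed by KlHET NMES 9 with 42.8 and KlHET Control 5 with 42.4, and the median without the first 2 was 9.20 in 34 libraries, the lowest at 6.22. KlHET Control 7 also had the highest sum over 8 choroid plexus markers, 2685, and KlHET NMES 9 the next, 1465. KlHET Control 9 had a sum of 1434 and 14.0 of Gpx3. KlHET Control 5 had a sum of 408, with the marker Ttr at 100.4 against a median of 1.07 in the 34 libraries. Gstm7 was higher in the 2 libraries (39.1 and 39.6 against 12.4 to 23.5), and Gstm6 in KlHET Control 7 alone (14.6, with 7.70 in KlHET NMES 9 and 2.41 to 7.76 in the others). KlHET Control 7 was the highest of its 12 mice in 24 of the 49 members. The part of choroid plexus in these values was not tested.

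**Figure D5:**
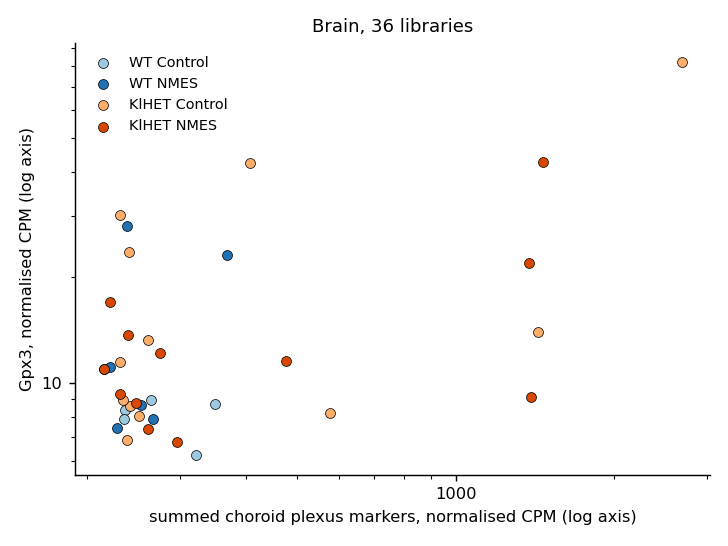
Gpx3 against the summed level of 8 choroid plexus markers in 36 brain libraries, normalised CPM on log axes, colored by group. KlHET Control 7 (82.1 against 2685) is at the upper right, while other libraries with sums over 1000 have Gpx3 values down to 9.13.

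Brain Nnt was higher in KlHET mice after NMES and did not pass in controls. It ran from 16.1 to 23.5 (median 19.9) in WT Control against 18.8 to 29.1 (median 26.6) in KlHET Control (0.37 ± 0.09, adjusted p = 0.143), and from 18.8 to 20.9 (median 19.7) in WT NMES against 20.8 to 36.1 (median 29.2) in KlHET NMES (0.52 ± 0.09, adjusted p = 0.00884). No member passed on the brain slope, where Nnt itself was the 1 gene called of 15400 (0.00649%) and no member had an unadjusted p under 0.05. Prdx5 (0.27 ± 0.15), Gsta4 (0.34 ± 0.19) and Glrx2 (-0.15 ± 0.08) had the smallest p. The range of Nnt was narrower in brain than in muscle, where the highest KlHET level was 116.

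Because both tissues came from the same mice, each member was correlated between them over the 36 mice after group means were removed. The median r of the 46 members was -0.03, against 0.03 over 12737 genes, and 3 members lay above the 95th percentile of all genes, 0.361. Gsr had r = 0.53 and rho = 0.54 (permutation p = 0.0019 and 0.00179, and 0.157 for r after adjustment over all genes), with r = 0.44 without the 2 mice farthest from the median and 0.71 in KlHET mice alone. The 2 mice were picked for each gene, by the distance of its muscle value from the median after group means were removed, and can differ between genes. Gstm5 (r = 0.43, rho = 0.31, permutation p = 0.0189 and 0.0775, adjusted p = 0.493) and Gsto1 (r = 0.42, rho = 0.35, permutation p = 0.0336 and 0.056, adjusted p = 0.595) fell to 0.25 and 0.22 without their farthest 2 mice. Gsta4 (r = 0.24, rho = 0.18, permutation p = 0.16 and 0.315, adjusted p = 0.854) fell to 0.05. Leaving out the farthest mice also narrows the range, so that these falls cannot tell whether the relations rest on few mice. For Nnt the values were r = 0.63 and rho = 0.54 (permutation p = 0.00023 and 0.00147, adjusted p = 0.03), and r = 0.45 without the farthest 2. No member and 105 genes (0.824%) passed adjusted p 0.05.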

How the data were processed

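Paired-end RNA-seq reads of 36 muscle and 36 brain libraries were aligned by the authors with Rsubread, annotated with org.Mm.eg.db and processed with edgeR 4.0.16 on mm10, and the authors deposited 1 table of CPM (read counts scaled to a common library total) per tissue, with 1 column per mouse. The deposited tables also give the authors' mean log2 CPM per gene and columns of their own comparisons, and neither was used. Every CPM value was a multiple of the value of 1 read (100% within 1e-06), and reads were recovered from it for depth and for count tests.

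The members and gene lists were chosen with earlier results of these data known. Differences were tested with limma 3.58.1 (R 4.3.3, trend, robust, 2-sided) on log2(TMM-scaled CPM + 0.5) of genes passing filterByExpr, with 4 group means over 36 libraries per tissue, Benjamini-Hochberg adjustment over all genes tested and a threshold of 0.05. The slope on Nnt added log2 Nnt to the group means. Named with values were the members called in any comparison, in comparisons with fewer than 3 calls the 3 with the smallest p, the 6 highest per kilobase of exon in each tissue, the 4 most correlated between tissues, Nnt, and of the pathway lists the genes with the smallest p where any passed. Other genes named were chosen after their values were seen. Alternatives were RLE or total-count scaling, pseudocounts of 0.1 and 2, no filter, edgeR 4.0.16 quasi-likelihood and DESeq2 1.42.0 on recovered reads, sex or Nnt as a covariate, leaving out each library or the one with the lowest mitochondrial share, and, chosen after seeing the data, a length and GC correction (spline with 4 degrees of freedom). The fit was tested on simulated data. Correlations between tissues used 100000 shuffles of mice within groups, and 20000 over all genes. Gene coordinates came from GENCODE M21 (GRCm38) for all 49 members.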

Additional observations from a re-analysis of the deposited data

Results flagged for a closer look

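Of 66 groups of 6 mice (a named member, or Nnt, in WT Control or WT NMES of a tissue), 6 held a mouse whose distance to its nearest neighbour was large beside the range of the group, and chance gives about 1 in 20. In muscle WT NMES 1 had 69.2 normalised CPM of Gstm5 against 88.3 to 93.8 in the other 5 mice, WT NMES 5 had 120.7 of Gstp-ps against 95.01 to 102, and WT Control 2 had 324 of Prdx3 against 300.4 to 305. The other 3 were in 1 brain library, WT Control 1, which had 27.8 of Cat against 39.1 to 44.9, 44.6 of Glrx2 against 50.6 to 53.6 and 50.9 of Gsta4 against 27.5 to 33.4. This library also had the lowest mitochondrial share of the brain libraries, 1.67%, whose part in these values was not tested.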

How the results depend on the processing

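Total-count scaling gave 0 members called for NMES over both genotypes in muscle (3 with TMM), 2 for genotype in controls (7), 5 for genotype after NMES (11) and 1 on the slope on Nnt (0). Over all genes it moved the share of calls that were higher from 43.2% to 88.0% in controls, from 48.4% to 89.6% after NMES and from 71.2% to 26.9% for NMES. Counts over all genes that moved by over 1.5 times in muscle included 329 higher and 142 lower for NMES with DESeq2 (171 and 69 with limma), 270 and 95 without the library of the lowest mitochondrial share, 205 and 43 for NMES in KlHET with DESeq2 (65 and 22), and 38 and 158 (350 and 460) in controls and 370 and 929 (1251 and 1333) after NMES for genotype with the length and GC correction. In brain DESeq2 called 37 higher and 19 lower for genotype in controls (8 and 3) and 21 and 11 after NMES (9 and 6). On the slope in muscle (18 and 26) they were 60 and 74 with total-count scaling, 59 and 55 with the length and GC correction, 2 and 1 in KlHET mice alone, 1 and 0 with sex as a covariate and 0 in all on the Nnt of the brain. The length and GC correction gave 3, 5 and 2 for genotype in controls, genotype after NMES and the slope. Nnt as a covariate gave 12 in controls. DESeq2 gave 3 for NMES in KlHET muscle and 1 for genotype in brain controls, where limma called 0. Without the library of the lowest mitochondrial share 1 member passed on the slope. Of the correlations between tissues, 3 were above 0.361, the 95th percentile of all genes over 36 mice. Above that same value were 5 in KlHET mice alone, a smaller set of mice, and 1 without the 2 farthest mice of each gene. Leaving out 1 library gave 2 to 9 members for genotype in controls (2 without WT Control 3, 4 without WT Control 4), 9 to 15 after NMES, 0 to 4 for NMES over both genotypes, 0 to 1 in KlHET, 0 to 3 on the slope and 0 to 1 for genotype in brain controls. Single genes were followed only in comparisons where they were called or, where fewer than 3 were, among the 3 with the smallest p. None of these reversed direction. Under other settings 537 of their values stayed on their side of the threshold, 31 lost and 8 gained a call. On leaving out 1 library 1834 stayed, 90 lost and 20 gained. Members outside this set also gained calls in some settings, such as Sod1 and Gstp1 after NMES and Prdx1 and Gsta4 in controls, for genotype in muscle. No paired analysis was possible because the labels carry no replicate numbers shared by the groups compared, whereas the 2 tissues of a mouse share its number. Depth limits Gsta3, Gpx6 and Gsto2, at about 1 normalised CPM or less in median.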
